A study of Mus musculus with 5 samples.

Results

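This account concerns the Mapk12, Mapk11 and Plxnb2 locus on mouse chromosome 15, as seen in 4 peak lists of the ubiquitinated histone mark H2AK119Ub. Its members were the listed peaks that overlapped positions 88950000 to 89045000 of the mm9 genome build. There were 4 of them among 5132 listed peaks, 1 in each list. The locus was chosen by the deposited scores of its peaks, which ranked high in every list, so its scores, its ranks and its presence in all 4 lists are given as a description and support nothing.

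The mark was mapped by chromatin immunoprecipitation and sequencing (ChIP-seq). The cells were lineage-negative progenitors from the marrow of C57BL/6 mice, isolated with a progenitor enrichment kit and kept in liquid culture. All groups shared the genotype R26CreERT2;Ring1a-/-;Ring1bf/f;Cdkn2a-/-. These cells lacked Ring1a and Cdkn2a, and carried floxed Ring1b together with a CreERT2 recombinase placed at Rosa26, a broadly active locus; no label says that Ring1b had been deleted. One culture was non-transduced; 3 more were each transduced with an oncogene. These were HOXA9, a homeobox gene, PML-RARa, the fusion oncogene of acute promyelocytic leukaemia, and MLL-AF9, a fusion oncogene of acute myeloid leukaemia. With a single library per group, nothing could be tested, and each difference below is one between 2 libraries. A library from cells given a vector without an oncogene was not analysed here, so an oncogene and the transduction itself cannot be told apart. Read counts are not part of the lists, so sequencing depth is unknown, no interval that needs it is given, and the cell identity could not be checked against marker genes. The comparison asks how the mark at this locus differed between progenitors with and without each oncogene.

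H2AK119Ub is the product of PRC1, a Polycomb complex with the ubiquitin ligases RING1A and RING1B at its centre, and is found over repressed developmental genes, often as broad domains around CpG-rich start sites. Mapk12 and Mapk11 are paralogous neighbours that encode p38gamma and p38beta, members of the p38 group of stress-activated kinases; p38gamma is best known from skeletal muscle, and p38beta is closely related to p38alpha, the product of Mapk14. Plxnb2 encodes plexin-B2, a transmembrane receptor for class 4 semaphorins that acts in cell guidance and adhesion. In the RefSeq gene table of the later assembly GRCm38.p6, the protein-coding genes at this place follow in the order Hdac10, Mapk12, Mapk11, Plxnb2, Dennd6b, Ppp6r2. Hdac10 encodes a histone deacetylase family member, Dennd6b a Rab exchange factor and Ppp6r2 a regulatory subunit of protein phosphatase 6. A long non-coding RNA gene, Gm46530, lies beside Mapk12, and the microRNA gene Mir7118 is listed inside Plxnb2.

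The bases before the start sites of the 3 genes are shown because the genes lay, at least in part, within the marked domain and because CG dinucleotides, in capitals here, are the feature that PRC1 domains are known to accompany. Each run is the 250 bases before a RefSeq start site, read 5′ to 3′ on the strand of the gene. All are on the minus strand of GRCm38.p6; these positions belong to that build and cannot be set against the mm9 edges of the peaks.
Mapk12 (chr15:89140704-89140953): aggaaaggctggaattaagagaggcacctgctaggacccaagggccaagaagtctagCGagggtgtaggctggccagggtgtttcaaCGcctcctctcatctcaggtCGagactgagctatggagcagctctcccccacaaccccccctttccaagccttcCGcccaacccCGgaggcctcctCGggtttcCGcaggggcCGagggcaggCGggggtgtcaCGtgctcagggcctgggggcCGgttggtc
Mapk11 (chr15:89149607-89149856): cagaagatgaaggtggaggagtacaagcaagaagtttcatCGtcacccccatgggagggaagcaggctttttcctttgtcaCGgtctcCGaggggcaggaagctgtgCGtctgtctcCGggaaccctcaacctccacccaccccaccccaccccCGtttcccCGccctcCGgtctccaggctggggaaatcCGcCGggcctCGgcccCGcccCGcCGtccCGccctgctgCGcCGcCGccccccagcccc
Plxnb2, outer start (chr15:89180789-89181038): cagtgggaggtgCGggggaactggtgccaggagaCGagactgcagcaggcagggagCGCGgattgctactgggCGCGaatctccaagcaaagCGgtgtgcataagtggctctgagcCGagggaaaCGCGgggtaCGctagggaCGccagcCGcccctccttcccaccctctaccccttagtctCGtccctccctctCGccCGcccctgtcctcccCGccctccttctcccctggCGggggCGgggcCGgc
Plxnb2, inner start (chr15:89173952-89174201): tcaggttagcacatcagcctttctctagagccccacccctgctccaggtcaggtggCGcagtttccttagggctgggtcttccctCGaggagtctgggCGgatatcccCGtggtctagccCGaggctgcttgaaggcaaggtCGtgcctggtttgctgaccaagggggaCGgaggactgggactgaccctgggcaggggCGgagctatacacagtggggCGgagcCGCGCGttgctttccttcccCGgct

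All 4 windows held more CG dinucleotides than the median of 6 over the 32851 windows of the table. The Mapk12 window had 11, more than 64.4% of all windows. The Mapk11 window had 18, more than 78.3% of them. The outer Plxnb2 window had 20, more than 82.1%, and the inner one 13, more than 68.5%. These counts lay in the upper part of the distribution but not at its end. Relative to their C and G content the windows were less exceptional: the ratio of observed to expected CG was 0.425 before Mapk12, 0.652 before Mapk11, and 0.669 and 0.518 before Plxnb2, against a median of 0.373 over all windows. The GC content was 64.4% before Mapk12, 68% before Mapk11, and 69.2% and 63.6% before Plxnb2, with a median of 52.4% over all windows.

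**Figure D1:**
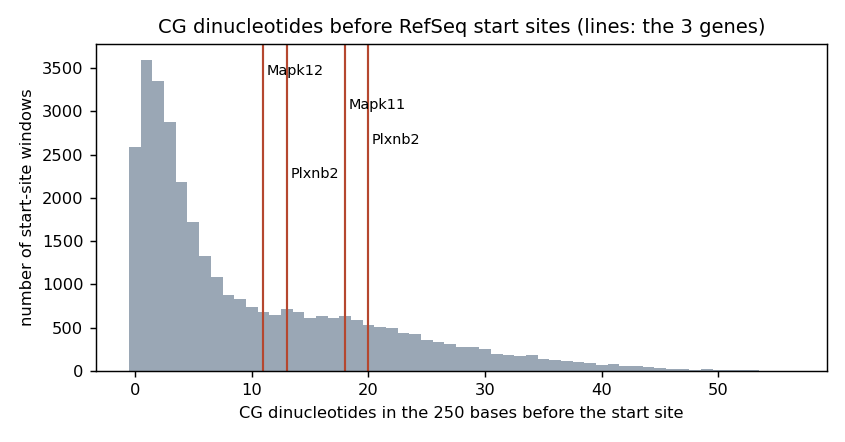
CG dinucleotides in the 250 bases before each of 32851 RefSeq start sites (x axis, number; y axis, number of windows), with a line for each start site of the 3 genes. The Mapk12 line is at 11, the Plxnb2 lines at 13 and 20 and the Mapk11 line at 18, all to the right of the median of 6.

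The letters GGGCGG, searched on both strands and overlapping the capitals at their CG, occurred once before Mapk12, 4 times before Mapk11, and 4 and 3 times before the outer and inner starts of Plxnb2. They were present in 32.7% of all windows of this length. Neither TATAAA, present in 12.4% of all windows, nor CCAAT, present in 33.8%, was found on either strand in any of the 4 windows. The other kinases of the p38 group had 30 and 14 CG dinucleotides before the 2 listed starts of Mapk14 and 25 before that of Mapk13. Among the class B plexins, the count was 30 before Plxnb1 and 3 before Plxnb3. The start windows of Mapk11 and Mapk12 were thus poorer in CG than that of Mapk13 and the richer one of Mapk14, while the plexins spread to both sides of Plxnb2.

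Each library had a single, uninterrupted peak over the locus. In non-transduced progenitors it ran from 88959562 to 89025974 and covered 66.4 kb. In the HOXA9 library it ran from 88954392 to 89024583 and covered 70.2 kb. In the PML-RARa library it ran from 88954187 to 89041315 and covered 87.1 kb. In the MLL-AF9 library it ran from 88959376 to 89023546 and covered 64.2 kb. The order was thus PML-RARa, HOXA9, non-transduced and MLL-AF9, and the last 3 lay within 6.02 kb of each other, whereas the PML-RARa peak exceeded the next by 16.9 kb. With 1 library a group, it is not known how far 2 libraries of the same cells would differ.

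**Figure D2:**
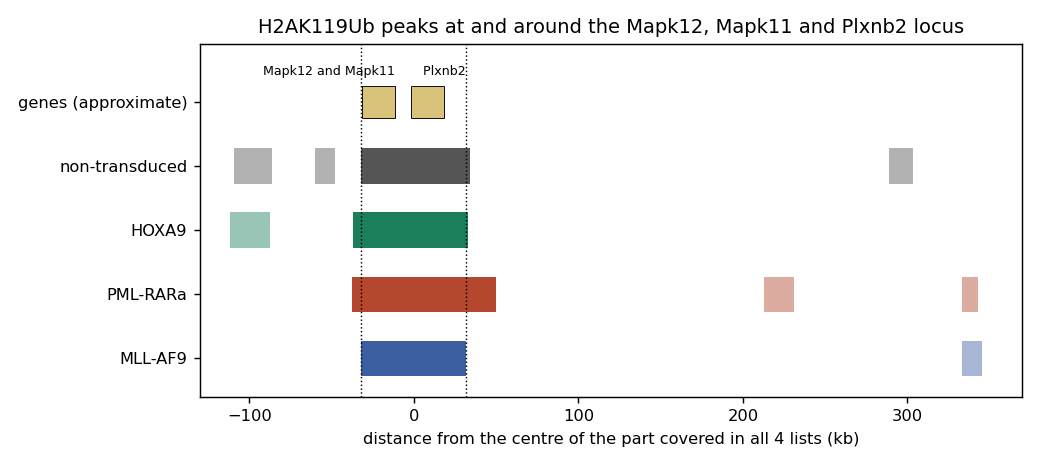
Listed peaks of the 4 libraries (rows) at the locus (solid) and beside it (pale), by distance in kb from the centre of the part covered in all 4 lists, whose ends are the dotted lines; boxes give the approximate gene positions, to 0.01 Mb. The locus peak covers 87.1 kb in PML-RARa, which reaches farthest to the right, then 70.2 kb in HOXA9, 66.4 kb in non-transduced and 64.2 kb in MLL-AF9.

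The domain had a common body of 64.0 kb, from 88959562 to 89023546, that was marked in all 4 lists. It made up 99.7% of the MLL-AF9 peak, 96.3% of the non-transduced peak, 91.2% of the HOXA9 peak and 73.4% of the PML-RARa peak. The MLL-AF9 peak was therefore the common body plus 186 bp. The non-transduced and MLL-AF9 peaks were the most alike, sharing 96.1% of the stretch they spanned together. The least alike were those of the 2 fusion oncogenes, PML-RARa and MLL-AF9, which shared 73.7%.

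The left edges fell into 2 close pairs. The HOXA9 and PML-RARa peaks began within 205 bp of each other, and the non-transduced and MLL-AF9 peaks within 186 bp. The pairs were 4.98 kb apart, so that a stretch from 88954392 to 88959375 was marked in the HOXA9 and PML-RARa lists alone. This is the side of Mapk12 and, beyond it, of Hdac10. The right edges of the MLL-AF9, HOXA9 and non-transduced peaks lay within 2.43 kb. The PML-RARa peak went on for a further 15.3 kb, from 89025975 to 89041315, on the side of Plxnb2 from which that gene is transcribed in the later assembly. The 2 ends of the domain thus differed in different libraries: the left end in HOXA9 and PML-RARa, the right end in PML-RARa.

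The gaps in the authors' peak numbers bear on these ends, since a missing number may be a call that was left out of the list. No number was missing between the non-transduced peak and its listed neighbours on either side, so no numbered non-transduced call lay in the left or the right extension. In the MLL-AF9 list no number was missing to the right of the locus peak up to the next listed peak, 301 kb away, so that no numbered call lay in the right extension there either. To the left, 2 MLL-AF9 numbers were missing over 3.50 Mb. In the HOXA9 list 1 number was missing to the right over 9.43 Mb. Whether an unlisted call lay in the left extension in MLL-AF9, or in the right one in HOXA9, is therefore not known.

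Mapk12, Mapk11 and Plxnb2 were covered, at least in part, in all 4 lists. The positions of the genes in mm9 are known here only to 0.01 Mb, with Mapk12 and Mapk11 near 88.96 to 88.98 Mb and Plxnb2 near 88.99 to 89.01 Mb, and both of these approximate spans were covered completely in each list. The Plxnb2 span lay well inside, with at least 13.5 kb of marked sequence to its right in every library and 31.3 kb in PML-RARa. At the other end the common body began 0.438 kb before the Mapk12 and Mapk11 span, which is less than the precision of that position. Whether the outer end of Mapk12 was covered in the non-transduced and MLL-AF9 lists therefore cannot be told. The HOXA9 and PML-RARa peaks reached farther, 5.61 kb and 5.81 kb beyond the span. This too is less than 0.01 Mb, so coverage of that end is not settled in these lists either. Whether the 15.3 kb marked only in PML-RARa reached Dennd6b or Ppp6r2 was not determined, because an mm9 annotation was not used here.

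Within its own list, each peak was both high in score and wide. The score is the authors' value on a scale that is not stated, so only the rank within a list is read. The peak was the highest of 1772 in PML-RARa, with a score of 2763 against 2725 for the next. It was second of 1332 in the non-transduced list (2003, with 1957 for the next below) and second of 620 in HOXA9 (1559, with 1537 for the next below). In MLL-AF9 it was seventh, with a score of 1896 and 6 of 1408 peaks above it. On chromosome 15 alone it was the highest of 86 peaks in PML-RARa, of 79 in the non-transduced list and of 32 in HOXA9, and the second of 66 in MLL-AF9. By width it was less extreme, ranking 13 in PML-RARa and in HOXA9, 36 in MLL-AF9 and 59 in the non-transduced list. It was 5.46 times as wide as the median peak of its list in PML-RARa, 4.39 times in MLL-AF9, 4.06 times in HOXA9 and 3.62 times in non-transduced cells. Score and width rose together only loosely over the peaks of a list, with Spearman's rho between 0.236 and 0.267 in the 4 lists; peaks of a list share their library, and this is a description.

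**Figure D3:**
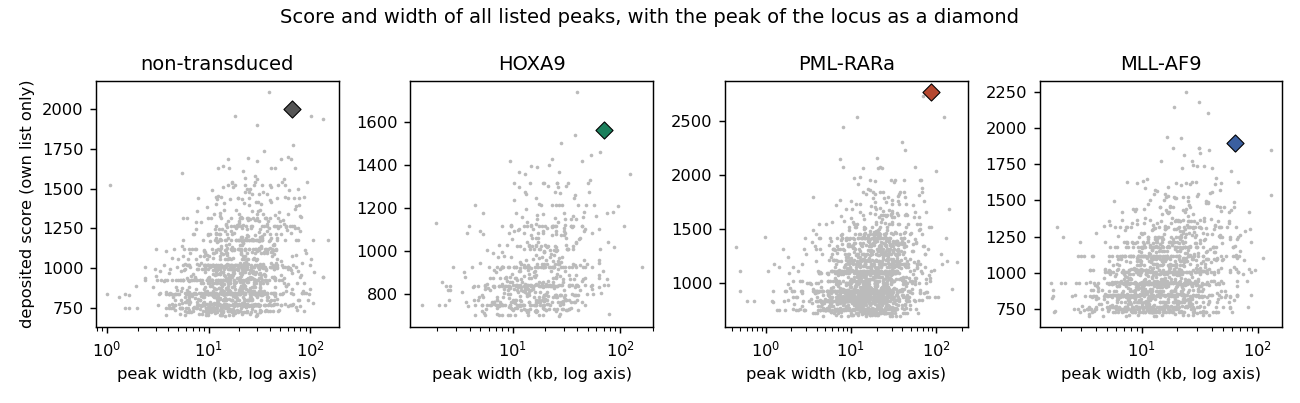
Deposited score (y axis, scale not stated, comparable only within a panel) against peak width in kb (log axis) for every listed peak of each library (grey points), with the peak of the locus as a diamond. The diamond is the highest point in PML-RARa (2763) and has 1 point above it in the non-transduced and in the HOXA9 list and 6 in MLL-AF9.

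Relative to the non-transduced peak, the covered length at the locus was 1.31 times as large in PML-RARa, 1.06 times in HOXA9 and 0.966 times in MLL-AF9. All 3 ratios share the 1 non-transduced library. Of 1275 merged regions with a non-transduced peak, 63.6% also had a PML-RARa peak, 57.2% an MLL-AF9 peak and 31.2% a HOXA9 peak, and 24.2% had a peak in all 4 lists as the locus did. Over the regions with a peak in both lists, the PML-RARa length was the larger in 57.1% of 811 regions, the MLL-AF9 length in 39.8% of 729 and the HOXA9 length in 36.7% of 398. The median ratios over these regions were 1.03 for PML-RARa, 0.945 for MLL-AF9 and 0.915 for HOXA9. The locus lay on the same side of 1 as the median in PML-RARa and MLL-AF9 and on the other side in HOXA9. A ratio above that of the locus was found in 27.1% of the regions for PML-RARa, 47.1% for MLL-AF9 and 27.4% for HOXA9, so none of the 3 ratios was at the end of its distribution. The ratios held for the locus peak alone. With the window widened by 50 kb on each side, they were 0.859 for PML-RARa, 0.632 for MLL-AF9 and 0.930 for HOXA9. This added 2 non-transduced peaks and 1 HOXA9 peak on the left, each counted at its whole width. Of these, the HOXA9 peak and the farther non-transduced peak lay mostly outside the widened window. Ratios of the lengths inside that window were not computed.

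Among the 309 merged regions with a peak in all 4 lists, 249 had exactly 1 peak in each, as the locus did. Its common body of 64.0 kb was the fifth longest of these, and the whole region of 87.1 kb the seventh longest. The common body made up 73.4% of the region, against a median of 54.3% (quartiles 35.2 and 70.4%), and 54 regions had a larger share. Among the 26 regions of at least 60 kb, the median share was 39.5% and 4 had a larger one. The left edges, spread over 5.38 kb, were close to the median spread of 5.14 kb. The right edges, spread over 17.8 kb, were wider apart than in 216 of the 249 regions (median 4.89 kb). Without the PML-RARa list the right spread was 2.43 kb and the common body made up 89.4% of the region. The order of covered lengths seen at the locus, from PML-RARa through HOXA9 and non-transduced to MLL-AF9, was found in 13 of the 249 regions (5.22%).

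**Figure D4:**
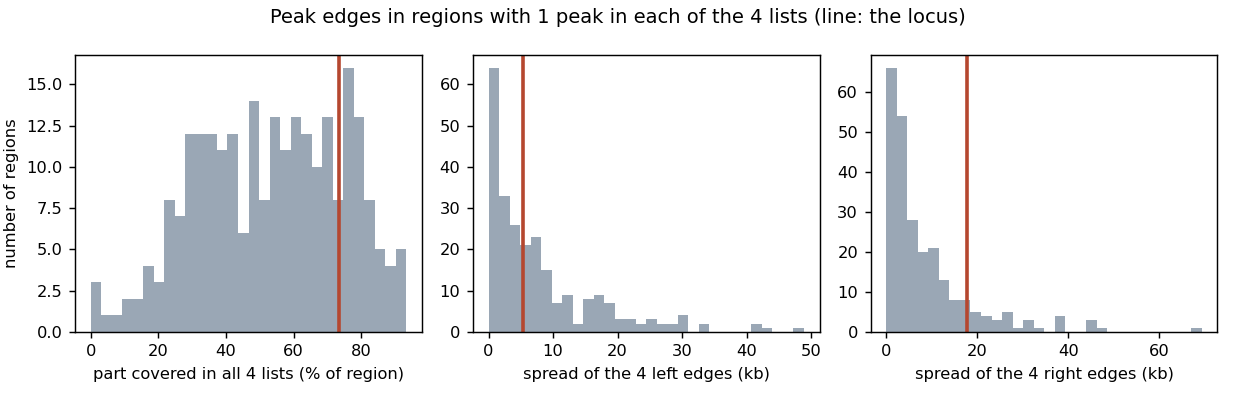
Part of the region covered in all 4 lists (left panel, % of the region) and spread of the left and right peak edges over the 4 lists (middle and right panels, kb) in the 249 regions with 1 peak in each list; the y axes count regions and the line is the locus. The line is at 73.4% in the first panel, at 5.38 kb, near the median, in the second, and at 17.8 kb, in the upper tail, in the third.

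On its flanks the lists held different peaks. On the left, beyond Mapk12, the non-transduced list held a peak of 11.8 kb at 88931611 to 88943408, which ended 6.59 kb outside the window and had a score of 839, and another of 23.3 kb at 88882094 to 88905364 with a score of 1266. The HOXA9 list held a peak of 24.2 kb at 88880055 to 88904251, whose edges were within 2039 bp and 1113 bp of those of the second non-transduced peak. It had no listed peak and no missing number between this one and the locus. In PML-RARa and MLL-AF9 the nearest listed peak on the left was 3.45 Mb and 3.50 Mb away, with 1 and 2 missing numbers in between. A stretch next to the locus was thus found in the non-transduced and HOXA9 lists and in neither fusion oncogene list, where an unlisted call cannot be told from none.

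On the right, beyond Plxnb2, other libraries shared a peak. The 2 fusion oncogene lists shared a peak that began at 89324646 in PML-RARa and at 89324661 in MLL-AF9, 15 bp apart, and was 10.1 kb and 12.4 kb wide. PML-RARa had a further peak of 17.8 kb at 89204652 to 89222436, a place where the non-transduced and MLL-AF9 numberings left no room for a call. The non-transduced list had a peak of 14.6 kb at 89280512 to 89295066 and no other up to 97662447, with 3 numbers missing in between. The nearest HOXA9 peak on the right was 9.43 Mb away, with 1 number missing. An unlisted call at the peak shared by the fusion oncogenes is therefore possible in both. Within 500 kb of the window, the locus was the only region listed in all 4 libraries, beside 2 regions of 2 libraries and 3 of 1 library. The locus was chosen for high ranks in every list. Over all 2575 merged regions, 309 had a peak in all 4 lists.

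The regions most like the locus were sought among the other 308 regions of all 4 lists by the Euclidean distance of their log2 covered lengths in the 4 libraries. A covered length was the sum of all peaks of a list in the region. The 60 regions with several peaks in at least 1 list were included, so the nearest regions need not be single peaks as the locus was. The nearest spanned positions 107550034 to 107627698 of chromosome 9, at a distance of 0.21. Its covered length was 76.7 kb in PML-RARa, 68.2 kb in HOXA9, 64.2 kb in non-transduced and 61.3 kb in MLL-AF9. The next was on the same chromosome as the locus, at 7130240 to 7216482, with 85.9, 78.4, 60.9 and 60.8 kb in the same order of libraries and a distance of 0.22. They were followed, at distances of 0.34 to 0.47, by 119367852 to 119443138 of chromosome 11, 60747622 to 60826574 of chromosome 18 and 19626349 to 19704233 of chromosome 7. The first 3 of these 5 regions, on chromosomes 9, 15 and 11, had the order of lengths of the locus. All 5 were picked for lengths close to those of the locus, so a shared order partly follows from that choice. In the chromosome 11 region the order rested on near ties: 75.3 kb in PML-RARa and 74.1 kb in non-transduced, with HOXA9 between them. In the chromosome 15 region, non-transduced and MLL-AF9 were nearly tied at 60.9 and 60.8 kb. The 5 regions did not share the score ranks of the locus in every list. Each region was ranked by its highest-scoring peak in a list. The chromosome 15 region at 7130240 ranked 1207 of 1332 by score in the non-transduced list and 607 of 620 in HOXA9. The chromosome 7 region held the second peak of the PML-RARa list and the first of the MLL-AF9 list. That MLL-AF9 peak was 24.1 kb wide, out of 51.2 kb covered in the region in MLL-AF9.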

How the data were processed

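H2AK119Ub ChIP-seq was described for 5 samples: 4 immunoprecipitated libraries, 1 per group, and 1 input, which was not used here. Chromatin was fixed with 1% formaldehyde and sheared to 200 to 300 bp, per the labels' protocols. The authors aligned reads and called peaks with Bowtie and MACS2 on mm9, per the submitters' processing notes; their versions and settings, and whether the input served as control, are not stated there. Each deposited list has 5 columns without a header, and the last holds the authors' score, whose scale is not stated. Positions were read as BED and are printed counting from 1.

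The PML-RARa list held 1772 peaks, the MLL-AF9 list 1408, the non-transduced list 1332 and the HOXA9 list 620, with 308 to 434 peak numbers missing per list. The lowest score was 703 in MLL-AF9 and 700 in the other lists. A peak belonged to the locus if it shared at least 1 bp with the window. Overlapping or adjoining peaks of any list were joined, which gave 2575 merged regions. With 1 library a group there was no test. The members, gene lists and comparisons were chosen with earlier results of these data known, and the limit of 60 kb for wide regions after the values were seen. The genes named are the members, their neighbours and families; the regions named are the 5 nearest in covered length and the listed peaks beside the locus. Gene positions in mm9 are the approximate ones given with the choice of the locus. Start-site sequences are RefSeq's (GRCm38.p6), matched by symbol for all 3 genes; their reading direction was checked by the place of TATAAA on both strands. Merging and overlaps were tested on simulated data. Python 3.11.15, numpy 2.4.6, pandas 2.3.3 and matplotlib 3.10.9 were used.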

Additional observations from a re-analysis of the deposited data

Results flagged for a closer look

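The covered length at the locus differed from that of the non-transduced library in opposite directions: by 3.78 kb in HOXA9 and by 20.7 kb in PML-RARa, both longer, and by -2.24 kb in MLL-AF9, which was shorter. Each value is a difference between 2 single libraries, all 3 share the non-transduced one, and the differences between the oncogenes were not tested.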

How the results depend on the processing

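Of 54 values recomputed for 16 results under the alternatives, 46 stayed within 1.5 times their value and, for ratios, on the same side of 1; lengths and ranks have no interval, so this limit stands in for one. Keeping only the 75% or 50% of peaks with the highest scores, joining of peaks within 1 or 5 kb and asking for the whole approximate gene span were among these settings. The score cuts could not change any value, because the locus was chosen for its high score ranks. Joining could not either, because the nearest listed peak was 16.2 kb from the locus peak. Values unchanged under the score cuts or the joining therefore do not show that the results are stable. The 64.0 kb common to all lists became 64.0 to 65.0 kb when 1 list was left out. Ranking by width in place of score gave 13 in PML-RARa and in HOXA9, 36 in MLL-AF9 and 59 in the non-transduced list. Widening the window by 50 kb on each side raised the non-transduced covered length to 101 kb by adding 2 peaks. Added peaks were counted at their whole width, although 1 of these 2 lay mostly outside the widened window. The ratios to it, computed after the data were seen, then changed side in HOXA9 (0.930) and PML-RARa (0.859) and fell in MLL-AF9 (0.632). These changes hold for whole peaks. The lengths inside the widened window were not computed. No paired analysis was possible because each group had 1 library. Since depth is unknown, a peak that is not listed does not show that the mark was absent.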

Other observations

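The other genes of the p38 and class B plexin pathways could be described only by the bases before their start sites, since their mm9 positions were not used here. For the 17 p38 pathway genes, 24 windows of 250 bases were found, with a median of 13 CG dinucleotides (lowest 1, highest 43), and 16 of them (66.7%) exceeded the median of all windows, as did 46.3% of all windows. The highest count belonged to Map3k5, which encodes the stress-activated kinase ASK1, with 43, and was followed by 30 for Mapk14. Taking the richest window of each gene, Mapk11 with 18 and Mapk12 with 11 stood in the lower part of this list, near Dusp10 (17), a phosphatase of p38 and JNK kinases, Map2k6 (12), an activating kinase of p38, and Mapkapk3 (11), a substrate kinase. Mef2c, a transcription factor phosphorylated by p38, had 6.

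For the class B plexin pathway, 13 of 14 genes matched, with 21 windows and a median of 15. Of these windows, 13 (61.9%) exceeded the median of all windows, as did 46.3% of all windows. Plxnb2, with 20 at its richest window, stood between Sema4c (23), which encodes a ligand of plexin-B2, and Erbb2 (16), a receptor tyrosine kinase that associates with class B plexins. Sema4d, which encodes a ligand of plexin-B1, had 2. Rnd1 had no entry.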
